A study of Mus musculus with 16 samples.

Results

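The 30 genes described here are widely used markers of astrocytes, and they were read in RNA from mouse brain cells that had been captured with magnetic beads against O4, a sulfatide antigen on the surface of late oligodendrocyte precursors and oligodendrocytes. They were taken by name from a list of astrocyte genes and looked up by Ensembl identifier. No cut on their values was applied, but the list was drawn up with earlier results of these data known. All 30 were among the 32207 genes of the count table, and all 30 were among the 16339 genes that passed the filter on low counts and were tested. The question put to them was how far they shifted together between libraries, and which of them moved apart from that shared shift after exposure to bisphenol A (BPA), a monomer of polycarbonate plastics that binds estrogen receptors.

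All 16 libraries came from OF-1 mice at postnatal day 16, with 4 libraries each of male controls, female controls, BPA-exposed males and BPA-exposed females. BPA reached the pups through the dam's drinking water from gestational day 7 onward and through lactation, at an exposure that the submitters put at 40 µg/kg/day. The water concentration that they also gave does not match this estimate, so the dose is uncertain. The O4+ cells of dissociated brain were the source in both arms, and litters were not named in the labels. The p-values given here measure the spread between these samples, and litter and treatment cannot be told apart.

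Total counts ran from 23603816 to 42575326 per library, and 3 counts, the floor used for detection, corresponded to between 0.0707 and 0.127 CPM. CPM, the usual count scaled to sequencing depth, here uses the library size after scaling by the trimmed mean of M values (TMM). The sort was checked by its markers: 12 genes of myelinating oligodendrocytes summed to between 116426 and 164982 CPM. No gene of any marker list used here, including those of microglia, neurons, endothelial cells, mural cells, ependyma and choroid plexus, was at 0 in every library. At this depth that is a loose mark of detection. The neuron list summed to 34.2 to 55.5 CPM, the endothelial list to 55.5 to 154 CPM and the microglial list to 593 to 2492 CPM. One library stood apart. Male BPA 2 had the lowest myelinating sum, and a limma sample quality weight of 0.233 against 0.730 to 1.41 in the other 15 libraries.

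Astrocytes take up glutamate and GABA from synapses and turn glutamate into glutamine, they hold potassium, bicarbonate and water balance through end-feet that wrap vessels, and they supply neurons and oligodendrocytes with lipids and matrix proteins. They are a separate glial lineage from oligodendrocytes and do not carry O4. In bulk RNA, fewer cells of a type and less RNA per cell cannot be told apart. Several of the genes are also made outside astrocytes: Glul, Hepacam and Fabp7 by cells of the oligodendrocyte lineage, Apoe by microglia, and the metallothioneins Mt1 and Mt2 by most cells that meet metals or stress.

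The 30 genes together took 6060 to 23510 CPM per library, with a median of 8464 CPM, and the 26 genes of another astrocyte list, which shares no gene with the 30 and whose most abundant gene is the connexin gene Gja1, took 511 to 3314 CPM with a median of 1004. By library, the 30 genes summed to 8837, 10415, 6664 and 7713 CPM in the male controls and to 9806, 8232, 6535 and 10972 CPM in the female controls. The sums were 9386, 23510, 6432 and 6060 CPM in the BPA-exposed males and 8597, 8122, 10963 and 8331 CPM in the BPA-exposed females. Male BPA 2 was the highest library, more than double the next, whereas male BPA 3 and male BPA 4 were the lowest of all 16, so the BPA-exposed males held both ends of the range and overlapped every other group.

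Levels between genes are compared on the authors' values, which are normalized counts divided by the median transcript length in kilobases. In the 8 controls the most abundant of the 30 was Ttyh1, a chloride channel family protein of glia and neural stem cells, at a median of 53660 (range 48253 to 55802). It was level with Apoe, the lipoprotein that carries lipids between brain cells, at 53309 (38604 to 73871), and their ranges overlapped. Slc1a2, the main glutamate transporter of the forebrain, followed at 41425, Glul, which encodes glutamine synthetase, at 31499, and Cpe, a carboxypeptidase that trims secreted peptides, at 23863. All 5 lay above the 99th percentile of genes tested, although on the same per-kilobase scale the myelin gene Mbp had a median of 344779.

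At the low end stood Mlc1, a membrane protein of end-feet, at 785, Gfap, the intermediate filament of astrocytes, at 634, Gpc5, a heparan sulfate proteoglycan, at 390, and Sox9, the transcription factor that marks astrocyte nuclei, at 128 per kilobase. Sox9 was the only one of the 30 below the median gene, at percentile 38.7. Each gene's range over the 8 controls overlapped that of its neighbour in this order, for example Slc7a10, Aqp4 and Htra1 at 3124, 2912 and 2905, except that Sox9 lay wholly below Gpc5 (77.3 to 182 against 294 to 481).

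**Figure D1:**
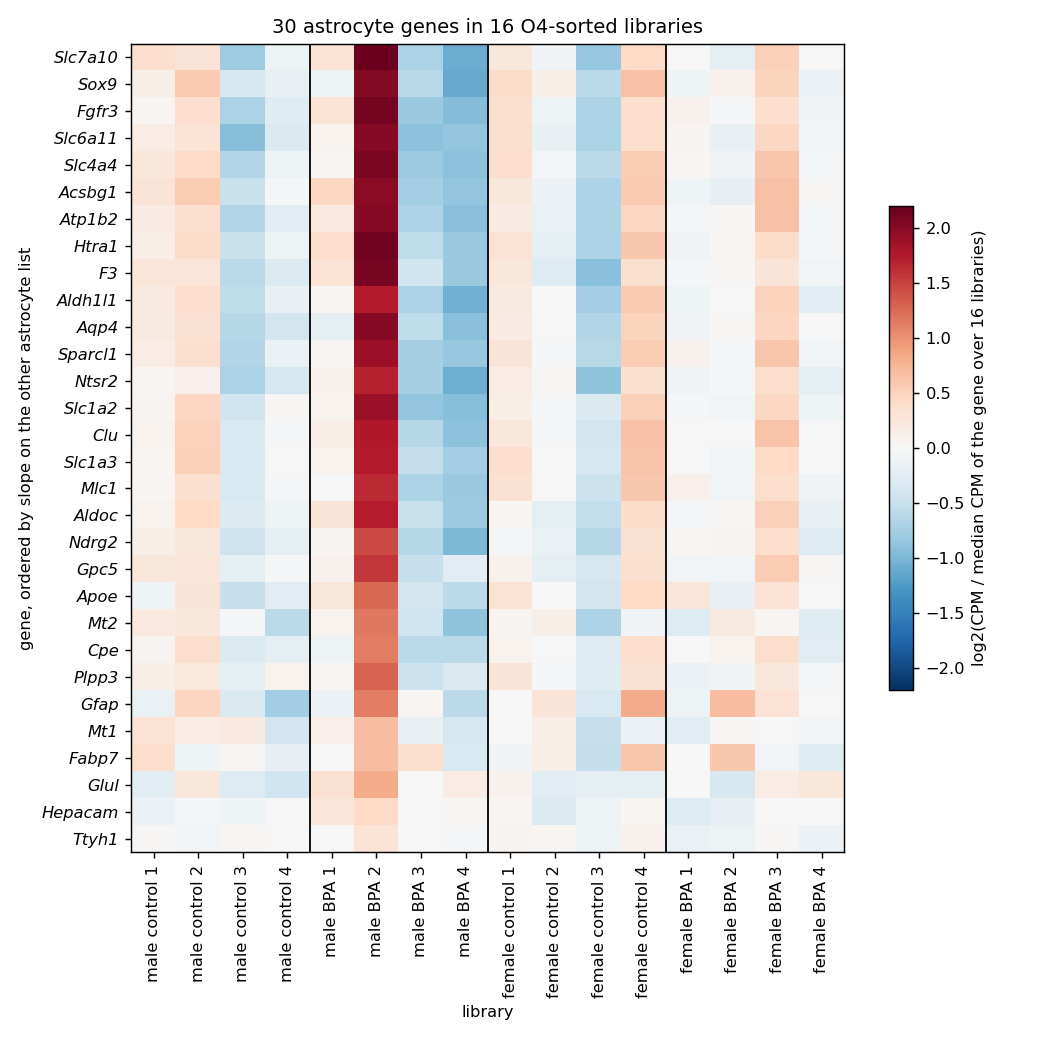
The 30 genes (rows, ordered by their slope on the other astrocyte list) in the 16 libraries (columns, by group), as log2 of CPM over each gene's median across libraries. Male BPA 2 is above the median in every row, male BPA 4 and female control 3 are pale to dark blue in most rows, and the lowest rows, from Gfap down to Ttyh1, break the column pattern.

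The libraries differed from each other mainly by a shift that most of the 30 genes shared. Aqp4, the water channel of end-feet, was at 114, 125, 64.3 and 75.6 CPM in the male controls, 113, 99.2, 63.6 and 141 CPM in the female controls, 86.2, 398, 68.0 and 52.9 CPM in the BPA-exposed males, and 94.4, 102, 138 and 100.1 CPM in the BPA-exposed females. One library was high, male BPA 2, and the other values of the 4 groups overlapped. Slc1a2 was at 658, 867, 470 and 645 CPM in the male controls, 698, 625, 510.1 and 911 CPM in the female controls, 672, 2357, 346 and 332 CPM in the BPA-exposed males and 613, 612, 872 and 593 CPM in the BPA-exposed females. Male BPA 2 was again the highest library, the groups overlapped, and the lowest values were those of male BPA 4 and male BPA 3.

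Male BPA 2 was the highest library for all 30 genes. Its fold over the median of the other 15 libraries was 4.49 for Slc7a10, a serine and alanine transporter, 4.46 for Htra1, a secreted serine protease, 4.45 for Fgfr3, the fibroblast growth factor receptor of astrocytes, and 4.33 for Sox9. It was 4.01 for Aqp4, 3.77 for Slc1a2, 2.42 for Apoe and 2.18 for Gfap, and it was smallest for Glul at 1.79, Fabp7, a brain fatty acid binding protein, at 1.61, Mt1 at 1.61, Hepacam at 1.37 and Ttyh1 at 1.24. At the other end, male BPA 4 was the lowest library for 19 of the 30 genes and among the lowest 3 for 27. Female control 3 was among the lowest 3 for 21 genes and male BPA 3 for 20. Below male BPA 2, the next highest library was female control 4 for 14 genes and female BPA 3 for 11.

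Further genes with a large fold in male BPA 2 are given by their range. Sparcl1, a secreted protein that promotes synapse formation, ran from 407 to 1113 CPM in the 15 other libraries and stood at 2673 CPM in male BPA 2, and Clu ran from 145 to 422 CPM and stood at 921. Among the enzymes, Acsbg1, which activates long-chain fatty acids, ran from 35.1 to 100.1 CPM against 253, and Aldoc from 123 to 306 CPM against 703. The end-foot genes Atp1b2 and Slc4a4 ran from 265 to 786 CPM against 2012 and from 68.2 to 194 CPM against 531. Plpp3, Cpe and Gpc5 had narrower ranges, from 236 to 411, from 289 to 570.1 and from 15.3 to 31.8 CPM in the 15 other libraries, and were at 804, 950.4 and 63.8 CPM in male BPA 2.

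Several other marker lists had an extreme sum in male BPA 2. Its endothelial list summed to 154 CPM against 55.5 to 145 in the other libraries, its mural and fibroblast list to 125 against 26.9 to 80.1, its radial glia list to 327 against 240.2 to 308, and its reactive astrocyte list to 88.2 against 26.8 to 54.6. Its committed oligodendrocyte list, at 7169 against 8237 to 11768 CPM, and its myelinating list, at 116426 against 128767 to 164982, were the lowest of all. Its microglial list, at 1403 CPM, lay inside the range of the others, 593 to 2492. The sums did not hold for each gene. In the radial glia list the most abundant gene, Prom1, was at its lowest in male BPA 2, at 181 CPM, whereas Egfr was at its highest, at 51.9. In the endothelial list Itm2a was at 30.1 CPM, below its maximum of 35.5, whereas Cldn5 was at its highest, at 32.5. The part of other cell types in the values of the 30 genes was not tested.

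The shared shift was measured with the other astrocyte list, whose mean log2 CPM was entered as a covariate beside the 4 groups. A slope of 1 means that a gene doubled when the other list doubled. All 30 slopes were above 0 and 29 were called at an adjusted p under 0.05 in limma-voom, against 11.6% of all genes tested with a called slope above 0. The median slope of the 30 was 0.97, whereas the median over all genes tested was -0.01. Without male BPA 2 the median was 0.92 and 23 of the 30 were called, against 2.83% of all genes tested.

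The genes differed from each other in slope. At the top stood Slc7a10 at 1.23 ± 0.05 (SE), Sox9 at 1.18 ± 0.06, Fgfr3 at 1.17 ± 0.04, Slc6a11, a GABA transporter, at 1.16 ± 0.06, and Slc4a4, a sodium bicarbonate cotransporter, at 1.16 ± 0.05. In all, 19 of the 30 had slopes between 0.91 and 1.23, among them Aldh1l1, the folate enzyme often used to label all astrocytes, at 1.09 ± 0.04 and Slc1a3, the other glial glutamate transporter, at 0.94 ± 0.05. A middle set held Gpc5 at 0.76 ± 0.06, Apoe at 0.73 ± 0.05, Mt2 at 0.70 ± 0.10, Cpe at 0.68 ± 0.05, Plpp3, a lipid phosphatase, at 0.63 ± 0.05 and Gfap at 0.63 ± 0.14.

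The lowest 5 slopes were those of Mt1 at 0.37 ± 0.09, Fabp7 at 0.33 ± 0.13, Glul at 0.28 ± 0.08, Hepacam, an adhesion molecule that anchors chloride channels at glial junctions, at 0.16 ± 0.05, and Ttyh1 at 0.12 ± 0.03. Fabp7 was the gene of the 30 whose slope was not called (limma-voom adjusted p = 0.118). Without male BPA 2, the 7 slopes no longer called were those 5 and the slopes of Gfap (0.65 ± 0.25) and Mt2 (0.67 ± 0.18). This grouping by slope was made after the values were seen and is given as a description.

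**Figure D2:**
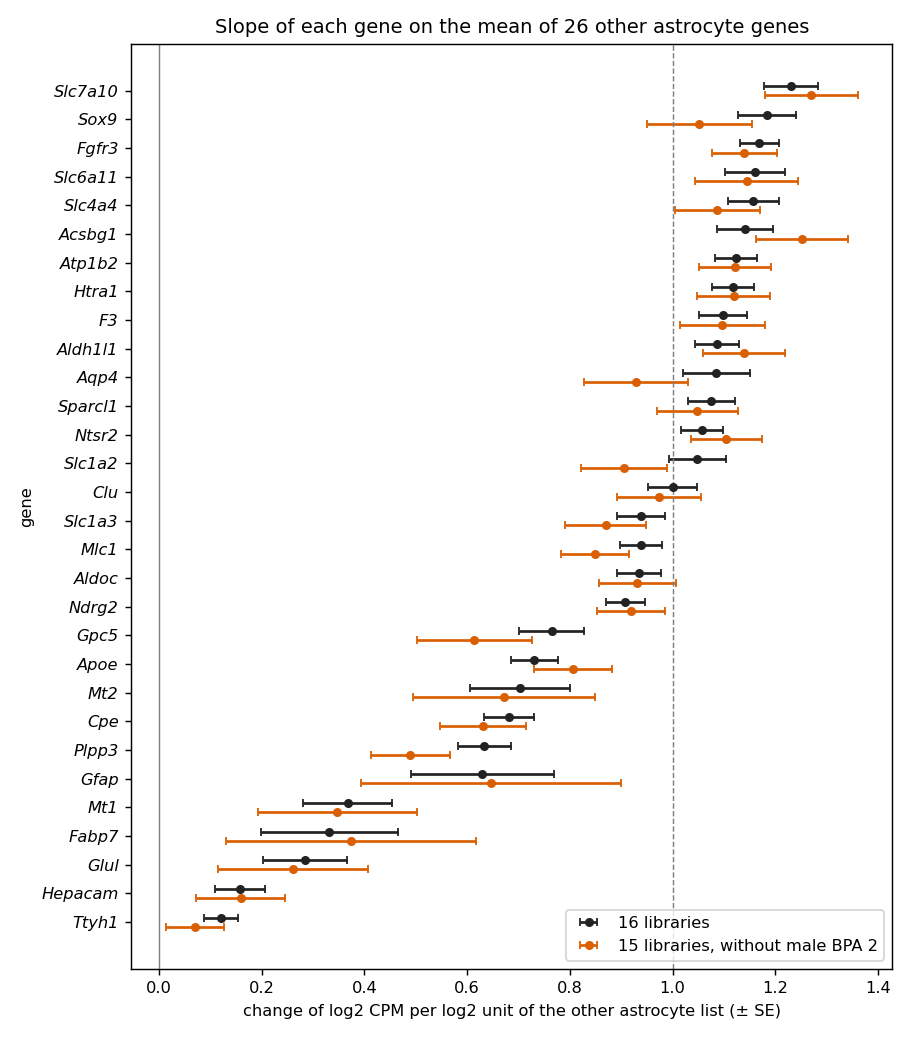
Slope of each gene's log2 CPM on the mean log2 CPM of 26 other astrocyte genes, with its SE, in all 16 libraries (black) and in 15 libraries without male BPA 2 (orange). The dashed line marks a slope of 1, around which 19 genes sit between 0.91 and 1.23, and the lowest 5 genes lie between 0.12 and 0.37.

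The shared shift also showed in the spread within groups. The within-group SD of log2 CPM had a median of 0.66 over the 30 genes, from 0.10 for Ttyh1 to 0.83 for Slc7a10. After each library's mean of the other astrocyte list was subtracted, the median SD was 0.16, and it was smaller for 25 of the 30. Ntsr2, a neurotensin receptor, went from 0.71 to 0.09 and Aldoc, the aldolase of astrocytes, from 0.63 to 0.10. The 5 genes with a larger SD after subtraction were Glul, Hepacam, Ttyh1, Fabp7 and Mt1; for Ttyh1 it went from 0.10 to 0.59. Without male BPA 2 the medians were 0.40 before and 0.13 after, and the SD was smaller for 24 of the 30, with Plpp3 the gene that changed sides.

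Ttyh1 showed the flattest profile, at 1132, 1073, 1149 and 1124 CPM in the male controls, 1159, 1146, 1026 and 1187 CPM in the female controls, 1104, 1375, 1107 and 1085 CPM in the BPA-exposed males and 1007, 1038, 1131 and 1023 CPM in the BPA-exposed females. Its highest library was again male BPA 2, but the whole range was narrow and the groups overlapped. Gfap, in contrast, had a wide range that followed the shared shift loosely. It was at 45.8, 70.3, 40.5 and 29.8 CPM in the male controls, 50.8, 61.5, 40.3 and 88.8 CPM in the female controls, 46.3, 110.3, 52.4 and 33.9 CPM in the BPA-exposed males and 46.6, 81.1, 63.4 and 50.5 CPM in the BPA-exposed females.

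The metallothioneins Mt1 and Mt2 bind zinc and copper and lie next to each other on chromosome 8; both are switched on by the zinc-sensing factor MTF-1 through metal response elements, whose core is TGCACNC or TGCGCNC. Their promoters are shown because the pair shares this known control, with slopes on the astrocyte list of 0.37 ± 0.09 for Mt1 and 0.70 ± 0.10 for Mt2, a difference that was not tested. The sequences are RefSeq promoters of build GRCm38.p6, 250 bases before to 50 after the start, with every core match on either strand in capitals. Mt1 lies at chr8:94178839-94179138 and Mt2 at chr8:94172368-94172667, both on the + strand.
Mt1: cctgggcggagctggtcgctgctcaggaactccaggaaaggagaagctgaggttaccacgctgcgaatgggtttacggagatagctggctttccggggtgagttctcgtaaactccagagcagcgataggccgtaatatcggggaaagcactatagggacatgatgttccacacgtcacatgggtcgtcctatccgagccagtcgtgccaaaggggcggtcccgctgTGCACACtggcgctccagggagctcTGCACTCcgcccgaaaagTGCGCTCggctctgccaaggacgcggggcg
Mt2: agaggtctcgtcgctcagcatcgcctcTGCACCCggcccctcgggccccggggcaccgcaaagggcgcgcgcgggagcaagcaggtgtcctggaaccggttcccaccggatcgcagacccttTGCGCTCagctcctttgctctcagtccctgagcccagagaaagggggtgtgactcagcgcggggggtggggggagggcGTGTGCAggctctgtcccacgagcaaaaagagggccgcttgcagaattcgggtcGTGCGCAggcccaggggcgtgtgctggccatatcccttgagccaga
The Mt1 window held 3 matches and the Mt2 window 4. A match to either core was present in 25.7% of the 32851 promoters of this length in the table, and 3 or more matches were present in 1.97%. The letters say nothing of whether the factor was bound in these cells.

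Mt1 was at 141, 126, 132 and 83.9 CPM in the male controls, 112, 125, 80.0 and 103 CPM in the female controls, 122, 181, 100.4 and 85.9 CPM in the BPA-exposed males and 95.4, 114, 113 and 108 CPM in the BPA-exposed females. The groups overlapped, and the fold changes after BPA were -0.02 ± 0.20 (SE, log2) in males and 0.05 ± 0.20 in females. Mt2 ranged from 28.8 CPM in male BPA 4 to 119 CPM in male BPA 2, with fold changes of 0.02 ± 0.34 and 0.07 ± 0.34.

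**Figure D3:**
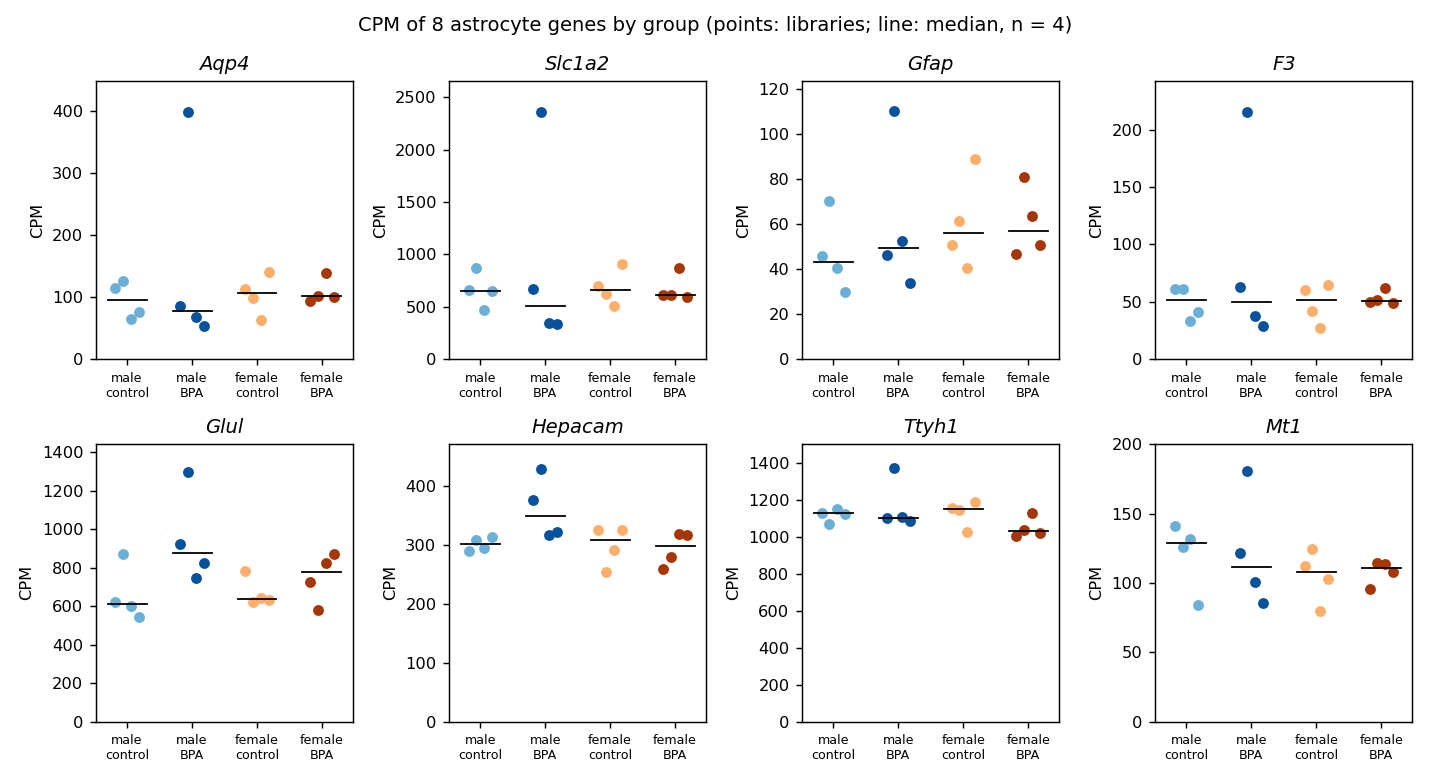
CPM of 8 of the 30 genes in each library (points) by group, with the group median as a line, on linear axes that start at 0. Aqp4, Slc1a2 and F3 show male BPA 2 far above the other points (398, 2357 and 215 CPM), Ttyh1 is nearly flat, and for Hepacam the 4 BPA-exposed males are above the 4 male controls.

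BPA-exposed and control groups were then compared without the covariate. None of the 30 genes was called at an adjusted p under 0.05 in males, in females, over both sexes, in the difference of the BPA effects between the sexes, or between control females and control males. Few genes of any kind were: 0.00612% of all genes tested in males, 0% in females, 0.0184% over both sexes, 0% for the difference and 0.0551% between the sexes in controls. At an unadjusted p under 0.05, limma-voom marked 2 of the 30 in males against 7.96% of all genes tested, 0 in females against 4.55%, 1 over both sexes against 7.69%, 0 for the difference against 4.72% and 0 between the sexes against 2.91%.

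The median log2 fold change of the 30 genes was 0.14 in males (28 of 30 above 0), 0.07 in females (23 of 30) and 0.11 over both sexes (25 of 30), where the median over all genes tested was between 0.00 and 0.01. Since the genes share their shift between libraries, these signs are not separate observations. Single libraries decided them. Without male BPA 2 the male median was -0.37, with 2 of 30 above 0, without male BPA 4 it was 0.46, and with sample quality weights it was -0.26. The female median ran from -0.12 without female control 3 to 0.24 without female control 4. The median over both sexes ran from -0.14 without male BPA 2 to 0.27 without male BPA 4. The median difference of the BPA effects, female minus male, was -0.08 with all libraries, 0.45 without male BPA 2 and -0.38 without male BPA 4, and the median between the sexes in controls was 0.05, with a range of -0.09 without male control 3 to 0.23 without female control 3.

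These comparisons were less precise for most of the 30 genes than for the typical gene. The median SE of the 30 log2 fold changes was 0.41 in males and 0.42 in females, against 0.14 and 0.13 over all genes tested. For Slc1a2 the male difference was 0.00 ± 0.45, and its 95% interval reached from -0.95 to 0.96 on the log2 scale. Genes that took little part in the shared shift had narrower intervals, such as Ttyh1 in males, from -0.11 to 0.21.

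Glul and Hepacam were the 2 genes at an unadjusted p under 0.05 in males. Glul was at 620, 871, 603 and 546 CPM in the male controls and at 926, 1299.8, 745 and 823 CPM in the BPA-exposed males, so that 3 of the 4 controls lay below every exposed male while the fourth overlapped. In the females it was at 785, 625, 641 and 632 CPM in controls and 728, 578, 824 and 874 CPM after BPA, with both groups overlapping. The log2 difference was 0.50 ± 0.18 in males (limma-voom adjusted p = 0.496), 0.15 ± 0.18 in females and 0.33 ± 0.13 over both sexes (adjusted p = 0.535). The difference between the sexes, -0.35 ± 0.25, was not called (adjusted p = 0.999).

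Hepacam was at 289, 307, 294 and 312 CPM in the male controls and at 376, 427, 316 and 322 CPM in the BPA-exposed males. All 4 exposed males were above all 4 controls, by a narrow gap; Hepacam was the 1 gene of the 30 of which this was true in males, where it was true of 1.62% of all genes tested, and none of the 30 showed it in females, where 1.27% of all genes did. Its female values were 325, 254, 291 and 324 CPM in controls and 258, 279, 318 and 316 CPM after BPA. The log2 difference was 0.25 ± 0.10 in males (limma-voom adjusted p = 0.553) and -0.03 ± 0.10 in females, and the difference between them was not called (-0.27 ± 0.14, adjusted p = 0.999).

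Of Glul, 11.9% of the 50-base words of its annotated transcripts also occurred in another gene, mostly the processed copy Glns-ps1, so reads from those stretches could be lost or assigned to the copy. The copy had a median of 213 raw counts per library against 24429 for Glul itself. For 28 of the other 29 genes the share of such words was under 1%, and for Aldh1l1 it was 1.22%. A gene on the opposite strand overlapped 13 of the 30. The library kit kept strand, but the strand setting used for counting was not given in the sources used here, so reads of those partners cannot be told apart with certainty.

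Beside the other astrocyte list, the comparison became narrower. With the list mean as a covariate the median SE of the 30 fell to 0.08 in both sexes, and Slc1a2 in males stood at -0.05 ± 0.09. Still none of the 30 genes was called in males, in females or over both sexes, where 0%, 0% and 0.0184% of all genes tested were. At an unadjusted p under 0.05, limma-voom marked 9 of the 30 in males against 10.3% of all genes, 3 in females against 6.03% and 10 over both sexes against 9.9%. All of these differences were above 0, but they were taken beside the same list mean, so they are not separate observations. The median log2 difference was 0.10 in males, 0.05 in females and 0.08 over both sexes, against 0.01 in males over all genes tested. The list mean includes the low-count gene Cyp4f14, which without the covariate differed by -1.46 ± 0.51 in males and -0.87 ± 0.47 in females. Over both sexes Cyp4f14 differed by -1.17 ± 0.35. Each of the 26 genes of the list has the same weight in its mean, whatever its counts. A lower Cyp4f14 lowers the list mean and so raises the differences beside it. Most other genes of the list had differences above 0 over both sexes. How much of these medians came from Cyp4f14 was not tested.

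F3 encodes tissue factor, the surface receptor that starts the extrinsic clotting cascade and is made by astrocytes in brain. In the fit with the covariate, F3 had the smallest p of the 30 in males and over both sexes. Atp1b2 had it in females in that fit. The CPM of F3 followed the shared shift, at 60.9, 61.1, 33.5 and 41.2 in the male controls, 62.5, 215, 37.6 and 28.7 in the BPA-exposed males, 60.4, 41.8, 26.8 and 64.8 in the female controls and 49.8, 51.6, 61.5 and 48.6 in the BPA-exposed females. As a difference from the other astrocyte list, on the log2 scale, it stood at 1.40, 1.20, 1.19 and 1.18 in the male controls and at 1.46, 1.71, 1.59 and 1.46 in the BPA-exposed males. The exposed males were then all above the controls. In the females it stood at 1.35, 1.03, 0.95 and 1.19 in controls and at 1.26, 1.38, 1.28 and 1.36 after BPA, with 1 control inside the exposed range. In the covariate fit F3 was higher after BPA by 0.30 ± 0.08 in males (limma-voom adjusted p = 0.219), 0.18 ± 0.07 in females (adjusted p = 0.790) and 0.24 ± 0.05 over both sexes (adjusted p = 0.130). Without male BPA 2 the values were 0.30 ± 0.09, 0.18 ± 0.08 and 0.24 ± 0.06.

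Atp1b2, a subunit of the astrocytic sodium-potassium pump, differed by 0.18 ± 0.06 in males, 0.18 ± 0.06 in females and 0.18 ± 0.05 over both sexes, where its limma-voom adjusted p was 0.168. Its difference from the list was 4.63, 4.59, 4.44 and 4.55 in the male controls and 4.68, 4.94, 4.65 and 4.66 in the BPA-exposed males. Htra1 differed by 0.23 ± 0.07 in males (adjusted p = 0.254) and 0.06 ± 0.07 in females, and Ntsr2 by 0.16 ± 0.07 and 0.09 ± 0.06. In males the exposed libraries were all above the controls for these 3 genes and for F3, which makes 4 of the 30, against 0.269% of all genes tested. These 4 were read beside the same list mean and are not separate observations. None of the 30 was so in females, against 0.239% of all genes. Most genes of the table do not follow the astrocyte list, and for them the subtraction adds the spread of the list itself, so these background shares are lower than those on CPM. In males the gap was narrow for Atp1b2, from 4.63 in the highest control to 4.65 in the lowest exposed male. It was also narrow for Ntsr2, from 2.19 to 2.22. The lowest exposed males, male BPA 3 for Atp1b2 and male BPA 4 for Ntsr2, were also those lowest in the low-count gene Cyp4f14. It stood at 0.201 and 0.488 CPM in them, against 2.22 CPM in male control 1, the highest male control for both genes. Leaving Cyp4f14 out of the list would therefore lower these exposed males more than that control. Whether the groups stay apart without it was not tested.

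**Figure D4:**
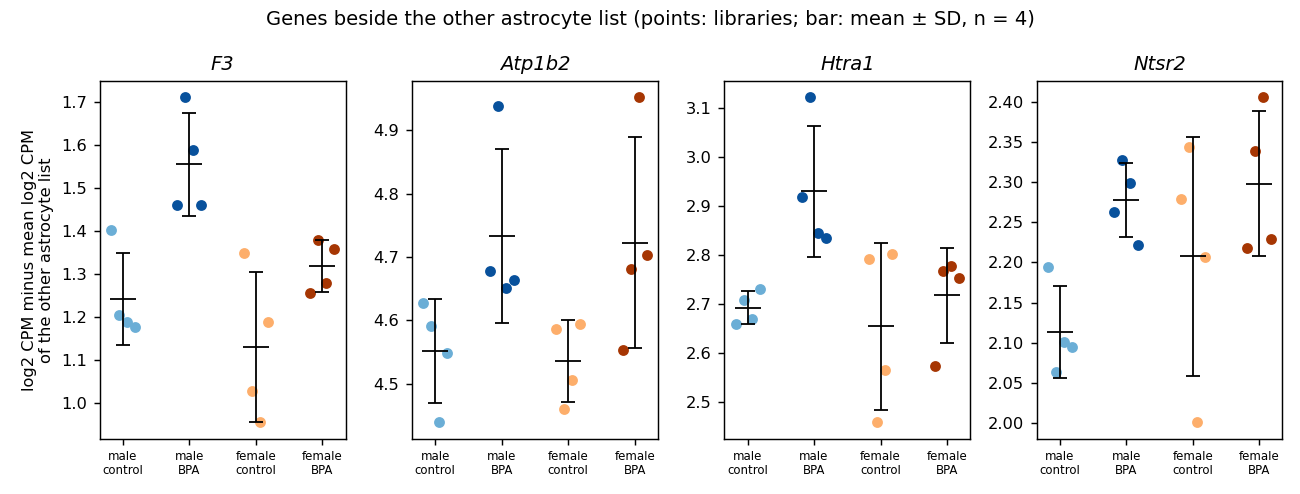
Log2 CPM of 4 genes minus the mean log2 CPM of 26 other astrocyte genes in each library (points), with the group mean and SD (n = 4); the axes do not start at 0. In males all 4 BPA-exposed libraries are above all 4 controls in each panel, and in females the groups overlap.

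Fgfr3 and Slc6a11 were higher after BPA in males by 0.22 ± 0.06 and 0.21 ± 0.09 in the same fit, with limma-voom adjusted p-values of 0.238 and 0.468. Glul and Hepacam, with their low slopes, had nearly the same values with the covariate as without it: 0.49 ± 0.13 (adjusted p = 0.238) and 0.24 ± 0.08 (adjusted p = 0.310) in males. In females the genes at an unadjusted p under 0.05 were Atp1b2, F3 and Ndrg2, a hydrolase-fold protein of astrocytes, at 0.15 ± 0.06. For other genes the difference from the list lay near 0. Slc1a3 differed by 0.02 ± 0.08 in males, Clu, the secreted chaperone clusterin, by -0.02 ± 0.08, Aldh1l1 by -0.04 ± 0.08 and Mlc1 by -0.03 ± 0.07, with 95% intervals that included 0.

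Apoe, which microglia also make in quantity, was at 1234, 1598, 918 and 1122 CPM in the male controls, 1551, 3160, 993 and 881 CPM in the BPA-exposed males, 1634, 1319, 994 and 1770 CPM in the female controls and 1577, 1173, 1634 and 1306 CPM in the BPA-exposed females. The groups overlapped in both sexes. With the astrocyte list as the covariate it differed by 0.23 ± 0.07 in males (limma-voom adjusted p = 0.306) and 0.00 ± 0.07 in females. With the means of the microglial and the myelinating lists added as covariates the male difference was 0.14 ± 0.07 (adjusted p = 0.621), and the slope of Apoe was 0.75 ± 0.05 on the astrocyte list and 0.14 ± 0.05 on the microglial list (adjusted p = 0.261). Acsbg1 had, in the same fit, a slope of 1.03 ± 0.25 on the myelinating list beside 1.32 ± 0.05 on the astrocyte list, and the former was just not called (adjusted p = 0.0517). Glul in males was 0.39 ± 0.15 in that fit (limma-voom adjusted p = 0.520), and F3 was 0.28 ± 0.09 (adjusted p = 0.430). Over the 16 libraries the astrocyte and myelinating list means had a correlation of -0.70, so the slopes on these lists are not cleanly separated.

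**Figure D5:**
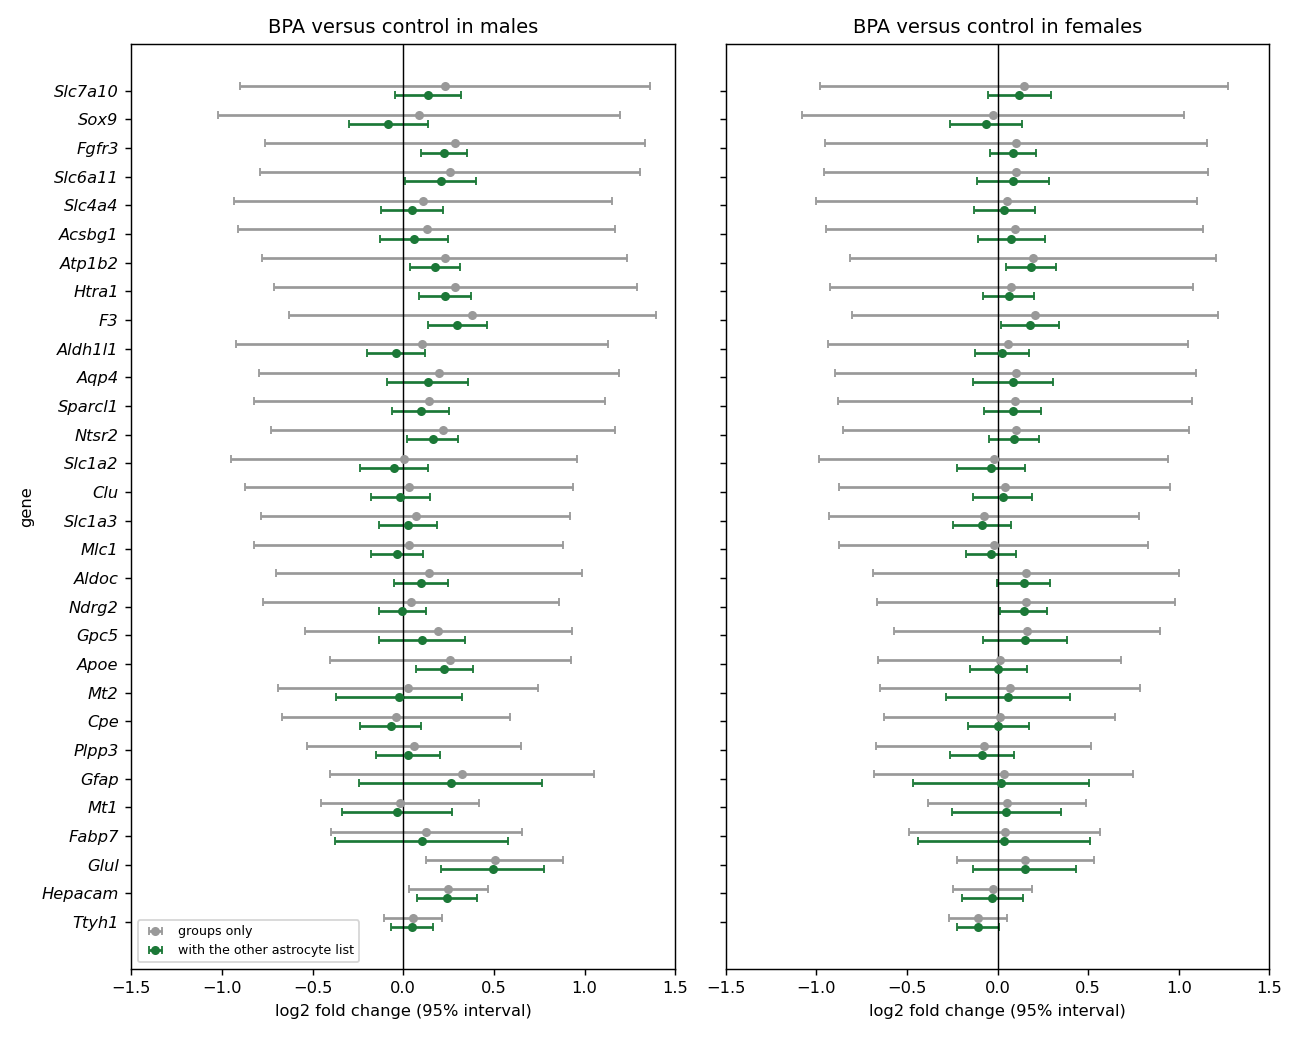
Log2 fold change after BPA of each gene in males (left) and females (right) with its 95% interval, from the fit with groups only (grey) and with the other astrocyte list as a covariate (green), genes ordered by slope. Grey intervals of the upper genes span about a doubling either way; the green ones are narrower, and in males F3, Glul, Fgfr3, Htra1, Apoe, Hepacam, Atp1b2, Ntsr2 and Slc6a11 lie above 0 before adjustment for the number of genes.

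Among the 26 genes of the other astrocyte list, none was called after BPA either. The 4 with the smallest p over both sexes were Cyp4f14, Cyp4f15, Etnppl and Cbs. Cyp4f14, a cytochrome P450 of fatty acid and eicosanoid breakdown, was low throughout, at 2.22, 2.60, 2.06 and 1.42 CPM in the male controls and 1.48, 1.49, 0.201 and 0.488 CPM in the BPA-exposed males. It was at 1.38 to 2.45 CPM, with a median of 1.98, in the female controls and 1.88, 1.28, 0.449 and 1.19 CPM in the BPA-exposed females, so 2 of the 4 exposed males and 3 of the 4 exposed females lay below all controls of their sex. It belongs to a family of close copies, so its counts are less certain. Its log2 difference was -1.17 ± 0.35 over both sexes (limma-voom adjusted p = 0.362), where 22 of the 26 genes had differences above 0. Etnppl, which breaks down phosphoethanolamine, and Cbs, which makes cystathionine, followed the shared shift, with 15.4 and 70.6 CPM in male BPA 2.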

How the data were processed

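Counts per gene were deposited by the authors for 16 polyA libraries of a stranded kit. Per the submitters' processing notes, the build was mm39, and the tools named, without roles, were DESeq2 (version 1.16.1), HTSeq (0.6.1p1), STAR (2.5.3a) and bcl2fastq (2.20.0.422); per the labels, the other columns are normalized values and the same per kilobase of median transcript length. The raw count columns were used here, and the per-kilobase columns only for levels between genes.

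The 30 genes and all marker lists were chosen with earlier results of these data known. Symbols were matched by Ensembl ID (31717 of 32207). Genes with 10 counts at the median library size in 4 libraries and 15 in total were kept, and these 16339 genes held 99.9% of the counts. Library sizes were scaled by TMM, log2 CPM used a prior count of 2, and limma 3.58.1 (voom, robust empirical Bayes, R 4.3.3) fitted 1 coefficient per group over all 16 libraries. A linear model on log2 values was used in place of a count model. The comparisons were BPA against control in each sex and over both, the difference of these, and the sexes in controls, with Benjamini-Hochberg adjustment over all genes tested at 0.05. A further fit added the mean of the other astrocyte list.

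All 30 genes were to be named, with the 4 genes of the other list that had the smallest p over both sexes, and of each other list at most its most abundant 2. Genes picked out for slope or p were chosen after their values were seen. The procedure was tested on simulated data. Alternatives were other size factors, other filters, sample quality weights, a replicate block, other covariates, and leaving out each library. The 24 same-group pairs of libraries all differed by more than counting noise. The depth of 23603816 to 42575326 counts gave each of the 30 genes at least 241 raw counts, 3 counts being the floor, so counting error was small beside the spread between libraries.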

Additional observations from a re-analysis of the deposited data

Results flagged for a closer look

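Each of the 30 genes was looked at in each group of 4 libraries for a library whose gap to the nearest other took more of the group's range than Dixon's critical value for 4 samples. Of the 120 gene and group pairs, 18 had one, where chance gives about 1 in 20. They were not spread over the libraries: 11 were male BPA 2, 6 were female BPA 3 and 1 was female control 1, and since the genes share their shift, the flags are not separate events.

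Male BPA 2 stood above the other 3 BPA-exposed males for Aqp4 at 398.1, Slc1a2 at 2357, Slc1a3 at 1147, Slc4a4 at 530.8, Mlc1 at 197, Sox9 at 57.23, Ttyh1 at 1375, Slc6a11 at 1375, Plpp3 at 803.6, Gpc5 at 63.8 and Sparcl1 at 2673 CPM. Female BPA 3 stood above the other 3 BPA-exposed females for Slc1a2 at 872.4, Slc1a3 at 465.2, Atp1b2 at 786.1, Slc4a4 at 194.3, Clu at 416.4 and Gpc5 at 31.78 CPM. Female control 1 stood above the other female controls for Glul at 785.4 CPM.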

How the results depend on the processing

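Under every alternative run, 0 of the 30 genes were called in each of the 5 comparisons, and likewise beside the other astrocyte list. The median within-group SD of the 30 was 0.66, and leaving out 1 library at a time moved it between 0.40 (without male BPA 2) and 0.69. Median differences after BPA changed sign with sample quality weights, to -0.26 in males, -0.02 in females and -0.12 over both sexes, and the difference of the BPA effects to 0.28; male BPA 2 had the lowest weight. Over the libraries left out in turn, Glul in males ran from 0.35 to 0.65 and Hepacam from 0.16 to 0.31, and beside the list F3 in males ran from 0.26 to 0.35 (adjusted p up to 0.437).

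Same-numbered libraries of different groups had correlations of their deviations between -0.24 and 0.23, over 0.1 in 7 of 24 pairs. Libraries of different number were not correlated for comparison, and litters were not named. These values therefore cannot decide whether the numbers pair animals. With the replicate block, the median was 0.15 in males, 0.06 in females and 0.11 over both sexes. A DESeq2 test was not run. With 4 libraries a group, the SE without the covariate limited what could be seen: its median over the 30 was 0.41 in males, with 0.07 for Ttyh1 and 0.53 for Slc7a10.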
